A study of Mus musculus with 18 samples.

Results

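Akap12 and 9 other genes for A-kinase anchoring proteins (Akap1, Akap5, Akap6, Akap7, Akap8, Akap9, Akap10, Akap11 and Akap13) were followed through mouse spermatogenesis by RNA-seq. The 10 genes were taken by their symbols from a table of 46603 genes, and all 10 were among the 18547 genes with enough reads to be tested. Akap12 was chosen by its measured level in the last population, where it led the transcripts set apart there, so that level, and its ratio to any other population, are given as a description with no test. The libraries form 6 groups of 3, and the groups were sorted as germ cells from testes of adult male C57BL/6 mice. All mice carried the transgenes named Stracre-GAG-tdTomato in the labels, which also give the background once as C57BL/5. By their labels the spermatogonia are Undiff.Spg and Diff.Spg, names that usually stand for undifferentiated and differentiating cells. The spermatocytes are PreL (usually preleptotene), LZ (leptotene and zygotene) and PD (pachytene and diplotene), and the last group is RS (round spermatids). How many animals were pooled, and whether the 3 libraries of a group came from separate animals, is not given in the sources used here, so the p-values rest on differences among libraries that could be technical replicates.

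A-kinase anchoring proteins bind the regulatory subunits of protein kinase A (PKA), the enzyme that cyclic AMP switches on, and hold it beside its substrates and beside other kinases and phosphatases. Each has its own place in the cell, such as the plasma membrane, the outer membrane of mitochondria, the nucleus, the centrosome or the Golgi. In sperm the pathway is known for its part in motility and capacitation, and the fibrous sheath of the tail is built largely of anchoring proteins.

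Most stage markers followed the labels. The summed level of 10 genes of undifferentiated spermatogonia was 2155 to 2333 CPM in Undiff.Spg and at most 320.4 CPM elsewhere. Early meiosis genes were highest in LZ, at 5276 to 6217 CPM, pachytene and diplotene genes in PD, at 10390 to 10880 CPM, and a late germ cell list in RS, at 18160 to 20580 CPM. PD and RS were not sharply apart in the last 2 lists: pachytene and diplotene genes summed to 8999 to 9596 CPM in RS, and late genes to 10450 to 11190 CPM in PD. A list of 7 differentiating spermatogonia genes was highest in Diff.Spg, at 1975 to 2154 CPM, but still summed to 1640 to 1875 CPM in PD and RS. In PD against LZ 6 of these 7 genes were called lower and 1 higher, with a list median of -5.21 on the log2 scale. The sum in PD and RS thus does not stand for most of the list. CPM (counts relative to a common library total) were taken after TMM scaling of library totals, which ran from 11777947 to 16607462 reads. Levels are mean ± SD over 3 libraries throughout, and adjusted p-values are from edgeR's quasi-likelihood test with Benjamini-Hochberg adjustment over all tested genes, with a call at adjusted p under 0.05. Of the markers of other testis cells, a Sertoli list of 12 genes summed to 184.9 to 237.3 CPM in LZ. The list summed to 117.8 to 126.4 CPM in Undiff.Spg, 71.1 to 77.5 CPM in Diff.Spg and 79.3 to 112.1 CPM in PreL. Sums were 6.64 to 12.9 CPM in PD and 15.3 to 18.2 CPM in RS, and 3 of the 12 genes averaged at least 1 CPM in each. Fshr was at 0 in every group but LZ. A peritubular list summed to at most 151.1 CPM, in Undiff.Spg, an endothelial list to at most 49.8 CPM, in Undiff.Spg, and macrophage and Leydig lists to at most 13.3 and 7.97 CPM. The part of these cells in the members' levels was not tested. In such bulk samples fewer cells of a type and less RNA per cell cannot be told apart.

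PreL replicate 2 and LZ replicate 2 stood apart from their groups in late transcripts. Over 21 late germ cell genes, the median level was 2.08% of the RS mean in PreL replicate 2 and 1.92% in LZ replicate 2. PreL replicates 1 and 3 had 0.215% and 0.507%, and LZ replicates 1 and 3 had 1.002% and 0.556%. Where leaving both out ended or made a call, or moved a fold or an Akap12 level by over 1.5 times, the value without them is given beside the result. LZ means of other genes include LZ replicate 2, which was the highest LZ library for Pkib, Ropn1, Pde10a and Fhl5.

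Akap12, also called gravin or SSeCKS, encodes a scaffold at the plasma membrane and cytoskeleton that holds PKA and protein kinase C. The gene lies on the plus strand of chromosome 10 (GRCm38, chr10:4266380-4359470) and has 3 annotated transcripts. It shares no bases with another annotated gene among those counted. Its level was 65.2, 71.4 and 71.8 CPM in the Undiff.Spg libraries and 29.8, 31.4 and 27.8 CPM in the Diff.Spg libraries. PreL libraries had 19.2, 108.5 and 19.9 CPM, and LZ libraries had 26.5, 92.9 and 18.8 CPM. PD libraries had 1279, 1159 and 1363 CPM, and RS libraries had 5066, 4967 and 4668 CPM. All RS libraries stood above all PD libraries, and all PD libraries stood above the 12 earlier ones, among which the ranges of PreL and LZ overlapped those of Undiff.Spg and Diff.Spg.

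Akap12 was called higher in PD than in LZ, with means of 1267 ± 103 CPM in PD and 46.1 ± 40.7 CPM in LZ and a log2 fold change of 4.78 ± 0.65 (SE, adjusted p = 3.26e-06). LZ replicate 2 carried much of the LZ mean: without it and PreL replicate 2 the LZ level was 22.7 CPM and the log2 fold change 5.80 (adjusted p = 5.8e-17), and without LZ replicate 2 alone the log2 fold change was also 5.80. The mean in RS was 4900 ± 207.5 CPM, 3.87 times that in PD, 70.5 times that in Undiff.Spg and 165.2 times that in Diff.Spg. Akap12 was also placed among the 18547 tested genes by mean CPM, with no correction for gene length, so the places are by reads and not by transcripts. Akap12 stood at place 6 in RS and place 102 in PD, against places 3366, 6099, 4666 and 4747 in Undiff.Spg, Diff.Spg, PreL and LZ. Without the replicate 2 libraries of PreL and LZ its places there were 7229 and 6588. Its RS level equals 0.49% of the TMM-scaled library total. That is not a share of the reads, since the RS scaling factors were 0.669, 0.679 and 0.699.

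**Figure D1:**
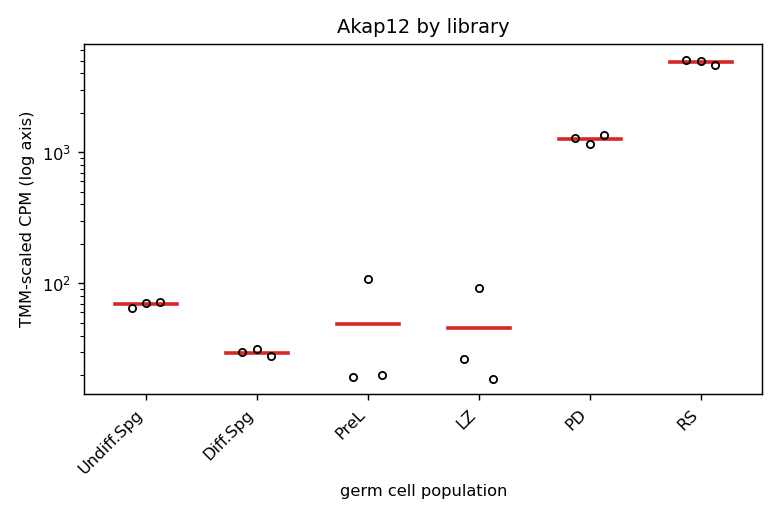
Akap12 level in each library, as TMM-scaled CPM on a log axis, for the 6 populations in developmental order; circles are libraries and red bars are means. The PD libraries sit between 1159 and 1363 CPM and the RS libraries between 4668 and 5066 CPM, while PreL replicate 2 and LZ replicate 2 sit at 108.5 and 92.9 CPM above the other libraries of their groups.

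Before PD the steps of Akap12 turned on PreL replicate 2 and LZ replicate 2. Diff.Spg averaged 29.7 ± 1.83 CPM and Undiff.Spg 69.5 ± 3.69 CPM, with no overlap, yet with all libraries the log2 fold change of -1.23 ± 0.57 did not pass (adjusted p = 0.093). Without both of those libraries it was -1.22 with adjusted p = 3.34e-08, and in a fit of the 6 libraries of the step alone it was -1.22 with adjusted p = 1.21e-09. Leaving out either library alone also gave a call. For PreL against Diff.Spg the log2 fold change was 0.73 (adjusted p = 0.304) with all libraries and -0.60 (adjusted p = 0.00115) without both. LZ against PreL gave -0.10 (adjusted p = 0.928) with all libraries, 0.21 (adjusted p = 0.263) without both, and 1.24 (adjusted p = 0.0225) without PreL replicate 2 alone.

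Set against the late genes, the Akap12 level was 2.21% of its RS mean in PreL replicate 2 and 1.90% in LZ replicate 2, close to the late medians of 2.08% and 1.92%. In the Undiff.Spg libraries it was 1.33%, 1.46% and 1.47%, against late medians of 0.439%, 0.254% and 0.234%, and it lay above the upper quartile of the late genes in replicates 2 and 3. In PD it was 26.1%, 23.6% and 27.8%, against late medians of 18.8%, 14.3% and 17.6%. Averaged over PD, 12 of the 21 late genes stood below the 25.9% of Akap12, with a range from 7.76% for Catsper3 to 101.7% for Ldhc. The part that carried-over late transcripts have in the earlier libraries was not tested.

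**Figure D2:**
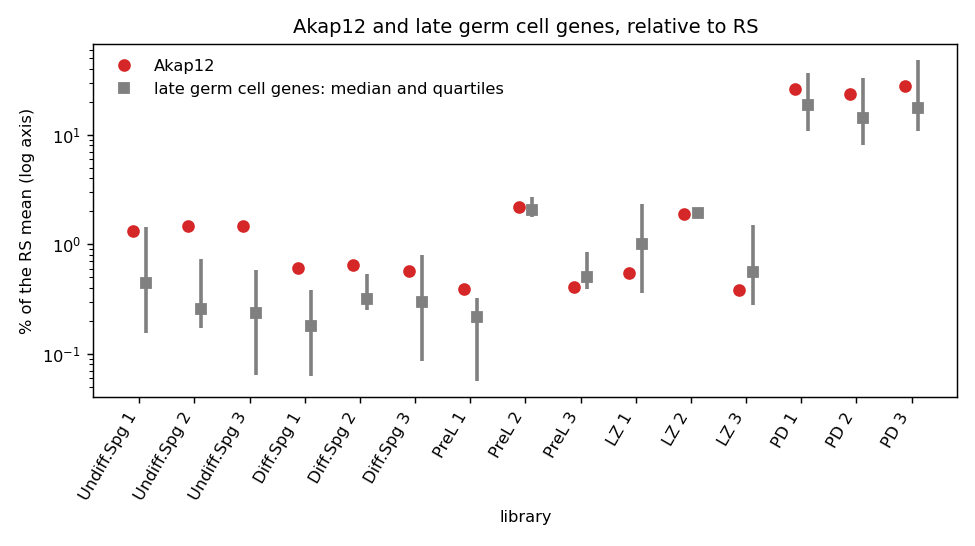
Akap12 (red circles) and the median with quartiles of 21 late germ cell genes (grey squares and lines) in each library before RS, as a percent of the RS mean on a log axis. In PreL replicate 2 and LZ replicate 2 both measures sit near 2%, while in the Undiff.Spg libraries Akap12 sits at 1.33% to 1.47% and the late medians at 0.234% to 0.439%.

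Akap5 encodes a membrane scaffold for PKA, protein kinase C and the phosphatase calcineurin, best known at synapses. Its level was 3.13, 4.63 and 4.45 CPM in Undiff.Spg, 11.9, 12.6 and 10.3 CPM in Diff.Spg, and 10.9, 10.4 and 6.00 CPM in PreL. LZ had 4.60, 4.02 and 1.98 CPM and PD 0.640, 0.364 and 0.586 CPM, while RS held 1 read in all, in replicate 3. Thus Akap5 was highest in Diff.Spg and PreL, whose ranges overlapped, and nearly absent from RS, a course opposite in direction to that of Akap12 after LZ. It rose in Diff.Spg against Undiff.Spg (log2 fold change 1.51 ± 0.29, adjusted p = 0.000451), fell in LZ against PreL (-1.37 ± 0.30, adjusted p = 0.00103) and fell in PD against LZ (-2.72 ± 0.42, adjusted p = 1.51e-05). RS against PD was also called (adjusted p = 0.0045), from 1 read in RS and 17 reads in PD, a ratio of 0.0625 with a 95% counting interval of 0.0015 to 0.399.

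Akap7 encodes short membrane-bound and cytosolic forms that bring PKA to ion channels. It had 2 high points, in RS at 19.2 ± 2.46 CPM and in PreL at 25.3 ± 1.54 CPM. All RS libraries lay below all PreL libraries, which had 23.6 to 26.4 CPM, but the test did not call the difference (log2 fold change -0.41 in RS against PreL, adjusted p = 0.0732). RS libraries had 20.6, 20.5 and 16.3 CPM and PD libraries 7.96, 4.46 and 7.13 CPM, with no overlap and a log2 fold change of 1.55 ± 0.22 (adjusted p = 1.33e-05). Between LZ and PD the direction was the reverse, since PD averaged 6.52 ± 1.83 CPM and LZ 17.02 ± 5.11 CPM, and the fall of -1.38 ± 0.22 on the log2 scale passed (adjusted p = 2.09e-05). PreL rose over Diff.Spg, which had 10.2 ± 1.15 CPM, by 1.31 ± 0.21 (adjusted p = 8.33e-05). The fall in LZ against PreL, -0.57 ± 0.20 (adjusted p = 0.0279), was lost when PreL replicate 1, PreL replicate 3, LZ replicate 2 or LZ replicate 3 was left out, with adjusted p up to 0.0853. It was also lost without PreL replicate 2 and LZ replicate 2 together (-0.59, adjusted p = 0.0534) and in a fit of the 6 libraries of the step alone (-0.62, adjusted p = 0.0565).

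Akap1 and Akap10 encode anchors that bind both types of PKA regulatory subunit, Akap1 on the outer mitochondrial membrane and Akap10 on vesicles and mitochondria. Both were highest in RS. Akap1 started from a second high level in spermatogonia, with 122.7 ± 7.16 CPM in Undiff.Spg and 99.2 ± 5.22 CPM in Diff.Spg. It stood at 35.9 ± 3.80 CPM in PreL and reached its lowest level in LZ, with 24.2, 27.5 and 23.1 CPM. PD libraries had 65.8, 45.5 and 65.9 CPM and RS libraries 544.8, 530.6 and 470.3 CPM, each above all libraries of the group before it. The difference of -0.31 ± 0.14 on the log2 scale in Diff.Spg against Undiff.Spg missed the threshold (adjusted p = 0.0825), but passed in a fit of the 6 libraries of that step alone (-0.30, adjusted p = 0.000401) and without PD replicate 2 (adjusted p = 0.0328). Akap1 fell in PreL against Diff.Spg (log2 fold change -1.46 ± 0.14, adjusted p = 4.76e-07) and in LZ against PreL (-0.53 ± 0.14, adjusted p = 0.00474). It rose in PD against LZ (1.25 ± 0.14, adjusted p = 3.78e-07) and in RS against PD (3.12 ± 0.15, adjusted p = 1.27e-10), the last a change of 8.72-fold. In PD its level was 11.5% of the RS mean. Of the 21 late genes 9 stood lower in PD by this measure and the others higher, with a median of 16.9%; what RS transcripts contribute to the PD libraries was not tested. RS also exceeded Undiff.Spg, by 2.07 on the log2 scale (adjusted p = 4.13e-10).

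Akap10 changed least among the genes that peaked in RS. It had 37.3, 40.3 and 41.5 CPM in Undiff.Spg, 52.2, 52.3 and 51.4 CPM in Diff.Spg, and 71.7, 63.2 and 54.3 CPM in PreL. LZ libraries had 47.8, 56.6 and 55.7 CPM, PD libraries 79.3, 73.7 and 77.9 CPM, and RS libraries 179.3, 170.6 and 172.0 CPM. All RS libraries lay above all others, and all PD libraries lay above those of the 4 earlier groups. Akap10 was higher in RS than in PD by 1.18 ± 0.11 on the log2 scale (adjusted p = 1.25e-07) and in Diff.Spg than in Undiff.Spg by 0.39 ± 0.11 (adjusted p = 0.0088). PD exceeded LZ by 0.53 ± 0.11 (adjusted p = 0.000316), but by 0.13 (adjusted p = 0.277) with total library size as the only scaling, which moved the median of all genes in that step to -0.35. LZ against PreL was not called (-0.24 ± 0.11, adjusted p = 0.0837). It was called with total library size (-0.46, adjusted p = 0.00258), RLE scaling (-0.29, adjusted p = 0.0399) or DESeq2 (-0.29, adjusted p = 0.0284), and when any of 8 libraries was left out (adjusted p down to 0.0159). PreL exceeded Diff.Spg by 0.28 ± 0.11 (adjusted p = 0.0488), a call lost with the replicate block (0.28, adjusted p = 0.0702), without PreL replicate 2 and LZ replicate 2 together (0.28, adjusted p = 0.0829), with total library size as the only scaling (0.25, adjusted p = 0.0789), without the low-count filter (0.28, adjusted p = 0.144) and when any of 11 libraries was left out (all Undiff.Spg and Diff.Spg libraries, PreL replicates 1 and 2, LZ replicate 2, PD replicate 1 and RS replicate 2), with adjusted p up to 0.213.

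Akap11 encodes a large anchor that also holds glycogen synthase kinase 3 and protein phosphatase 1 and was first described in testis, and Akap8 encodes a nuclear anchor that associates with chromatin in dividing cells. These were the members with the most similar courses. The root mean square difference between their centred log2 profiles over the 6 groups was 0.364, against 0.787 for the next pair, Akap7 and Akap10, and 1.39 for Akap12 and its nearest member, Akap6 (1.43 without PreL replicate 2 and LZ replicate 2). Akap11 stayed between 220.3 and 292.3 CPM in the 12 libraries before PD, with no step among them called. Alternatives that did call one were total library size as the only scaling, with LZ below PreL by -0.32 (adjusted p = 0.0252), and a fit of the 6 libraries of Diff.Spg and Undiff.Spg alone, with Diff.Spg higher by 0.14 (adjusted p = 0.0299). PD libraries had 97.8, 85.2 and 103.0 CPM and RS libraries 35.5, 40.7 and 43.2 CPM, without overlap. It fell in PD against LZ, where LZ had 228.8 ± 4.004 CPM (log2 fold change -1.26 ± 0.12, adjusted p = 4.35e-08), and again in RS against PD (-1.26 ± 0.12, adjusted p = 1.65e-07).

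Akap8 had 161.4, 185.3 and 174.0 CPM in Undiff.Spg and averaged 224.3 ± 10.04, 209.1 ± 21.9 and 201.3 ± 4.03 CPM in Diff.Spg, PreL and LZ. PD libraries had 78.5, 85.5 and 87.1 CPM and RS libraries 15.2, 14.4 and 23.5 CPM, again without overlap. The falls were -1.27 ± 0.15 in PD against LZ (adjusted p = 5.41e-07) and -2.24 ± 0.16 in RS against PD (adjusted p = 3.84e-09) on the log2 scale. Diff.Spg exceeded Undiff.Spg by 0.37 ± 0.15 (adjusted p = 0.0495), a call lost when any Undiff.Spg, Diff.Spg, LZ or PD library or RS replicate 1 was left out, with adjusted p up to 0.168. RLE scaling, other low-count filters and the replicate block also ended it (adjusted p = 0.0511 to 0.0929).

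Promoter windows of 300 bases (250 before and 50 after an annotated start, from RefSeq on GRCm38.p6) were matched for 9 of the 10 members, in 13 windows. A window each of Akap11 and Akap8, which fell together, and of Akap1 and Akap10, which rose in RS, is shown here. They are written 5′ to 3′ on the gene's minus strand. These pairs moved in opposite directions in RS against PD, though other members had larger changes. Capitals mark TGACG or its reverse complement CGTCA, the core of the cyclic AMP response element, and the E-box CACGTG.
Akap11, chr14:78536811-78537110: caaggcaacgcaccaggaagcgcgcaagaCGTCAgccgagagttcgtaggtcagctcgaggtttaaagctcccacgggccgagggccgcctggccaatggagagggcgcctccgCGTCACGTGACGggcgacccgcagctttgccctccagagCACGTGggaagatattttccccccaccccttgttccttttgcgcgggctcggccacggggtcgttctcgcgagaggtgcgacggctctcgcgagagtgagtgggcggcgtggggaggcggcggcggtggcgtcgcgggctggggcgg
Akap8, chr17:32321189-32321488: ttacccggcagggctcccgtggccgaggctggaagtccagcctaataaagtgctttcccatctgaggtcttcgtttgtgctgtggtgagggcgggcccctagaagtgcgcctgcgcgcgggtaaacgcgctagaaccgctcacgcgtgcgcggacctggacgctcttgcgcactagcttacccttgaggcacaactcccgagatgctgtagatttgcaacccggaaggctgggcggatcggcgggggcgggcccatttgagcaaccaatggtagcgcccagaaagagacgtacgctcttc
Akap1, chr11:88864537-88864836: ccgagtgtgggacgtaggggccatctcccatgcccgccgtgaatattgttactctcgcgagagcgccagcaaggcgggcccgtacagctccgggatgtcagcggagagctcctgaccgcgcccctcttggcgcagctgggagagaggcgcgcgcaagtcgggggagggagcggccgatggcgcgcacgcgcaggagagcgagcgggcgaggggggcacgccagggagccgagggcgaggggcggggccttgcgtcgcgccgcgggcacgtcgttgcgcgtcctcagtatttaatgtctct
Akap10, chr11:61930208-61930507: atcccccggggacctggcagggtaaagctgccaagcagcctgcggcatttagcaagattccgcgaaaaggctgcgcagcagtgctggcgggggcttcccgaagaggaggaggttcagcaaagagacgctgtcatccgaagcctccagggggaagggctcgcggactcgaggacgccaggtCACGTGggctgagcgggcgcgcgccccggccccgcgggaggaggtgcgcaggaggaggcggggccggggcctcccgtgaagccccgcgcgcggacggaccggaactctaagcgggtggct

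The Akap11 window shown held TGACG or CGTCA at 3 places, of which a pair overlaps a CACGTG, and a second CACGTG stood apart. This window was the only one of the 13 with the core, which is found in 20.8% of all 32851 RefSeq windows of this length. Another Akap11 window, chr14:78522653-78522952, is not shown and held neither the core nor CACGTG. Akap1 windows not shown, chr11:88851454-88851753 and chr11:88851463-88851762, held neither and overlap each other, so the 13 are not all separate stretches. The full element TGACGTCA, which contains the core on both strands, was in none of the 13 and in 1.79% of all windows. CACGTG was in 3 of the 13, 1 start each of Akap11, Akap10 and Akap7, and in 7.15% of all. A match is a run of letters and not a site shown to be bound.

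Akap6, known in muscle as the anchor of the nuclear envelope, was low throughout and present at both ends of the series. It had 3.59, 2.95 and 1.53 CPM in Undiff.Spg, then 0.238 ± 0.0923, 0.0659 ± 0.0720 and 0.148 ± 0.0750 CPM in Diff.Spg, PreL and LZ, from 12, 3 and 6 reads in all. PD libraries had 5.31, 3.64 and 5.96 CPM and RS libraries 7.504, 9.03 and 8.46 CPM. Every Diff.Spg, PreL and LZ library lay below every library of the other 3 groups. Akap6 fell in Diff.Spg against Undiff.Spg (log2 fold change -3.42 ± 0.44, adjusted p = 9.23e-06) and rose in PD against LZ (4.99 ± 0.48, adjusted p = 4.94e-08). RS exceeded PD by 0.75 ± 0.30 (adjusted p = 0.0436), a call lost when Undiff.Spg replicate 2, LZ replicate 3, or any Diff.Spg, PD or RS library was left out, with adjusted p up to 0.236. It was lost too with total library size as the only scaling (0.53, adjusted p = 0.148), without the low-count filter (adjusted p = 0.0667) and with the replicate block (adjusted p = 0.0649).

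Akap9 encodes a very large anchor of the centrosome and Golgi. Its level was 146.2 ± 13.7, 176.6 ± 15.6, 188.5 ± 61.0 and 195.6 ± 19.9 CPM in Undiff.Spg, Diff.Spg, PreL and LZ, and no step among these was called, except that the 6 libraries of Diff.Spg and Undiff.Spg alone gave 0.28 (adjusted p = 0.00318). PD libraries had 12.2, 10.7 and 9.67 CPM and RS libraries 50.9, 54.2 and 83.7 CPM, so PD was the low point, below every other library. The fall in PD against LZ was -4.17 ± 0.24 (adjusted p = 7.06e-11) and the rise in RS against PD 2.54 ± 0.23 (adjusted p = 7.66e-08) on the log2 scale. The 3′ end of Akap9 shares 166 exonic bases with Cyp51, a cholesterol synthesis gene on the opposite strand, and without a stated strand setting reads there cannot be told apart. Cyp51 stood at 16.5 ± 1.43 CPM in PD and 57.3 ± 1.28 CPM in LZ, and at 125.9 ± 11.7 CPM in RS; its part in the Akap9 counts was not tested.

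Akap13 encodes an anchor that is also an exchange factor for the GTPase RhoA. It had 262.3 ± 20.6 CPM in Undiff.Spg, 169.1 ± 2.99 CPM in Diff.Spg, 135.9 ± 47.3 CPM in PreL and 267.8 ± 31.4 CPM in LZ. PD libraries had 7.96, 9.37 and 8.11 CPM and RS libraries 3.54, 3.86 and 8.11 CPM, with overlapping ranges. Both groups lay far below the 12 earlier libraries, of which the lowest was PreL replicate 3 at 83.1 CPM. LZ exceeded PreL by 0.98 ± 0.25 on the log2 scale (adjusted p = 0.00367), and PD was below LZ by -4.98 ± 0.30 (adjusted p = 1.02e-10), a change of 31.5-fold. Diff.Spg was below Undiff.Spg by -0.63 ± 0.25 (adjusted p = 0.0491), but not when any Undiff.Spg, Diff.Spg or PD library or LZ replicate 1 was left out (adjusted p up to 0.135), with total library size as the only scaling (adjusted p = 0.0828) or with the replicate block (adjusted p = 0.0626). RS was below PD by -0.70 ± 0.29 (adjusted p = 0.0467), but not when any Undiff.Spg or Diff.Spg library, PreL replicate 2, LZ replicate 1 or 2, PD replicate 2 or RS replicate 1 or 2 was left out (adjusted p up to 0.136), nor with RLE scaling (-0.55, adjusted p = 0.0903), DESeq2 (-0.56, adjusted p = 0.106), the filter of 1 CPM in 3 libraries (adjusted p = 0.0507) or the replicate block (adjusted p = 0.0641).

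**Figure D3:**
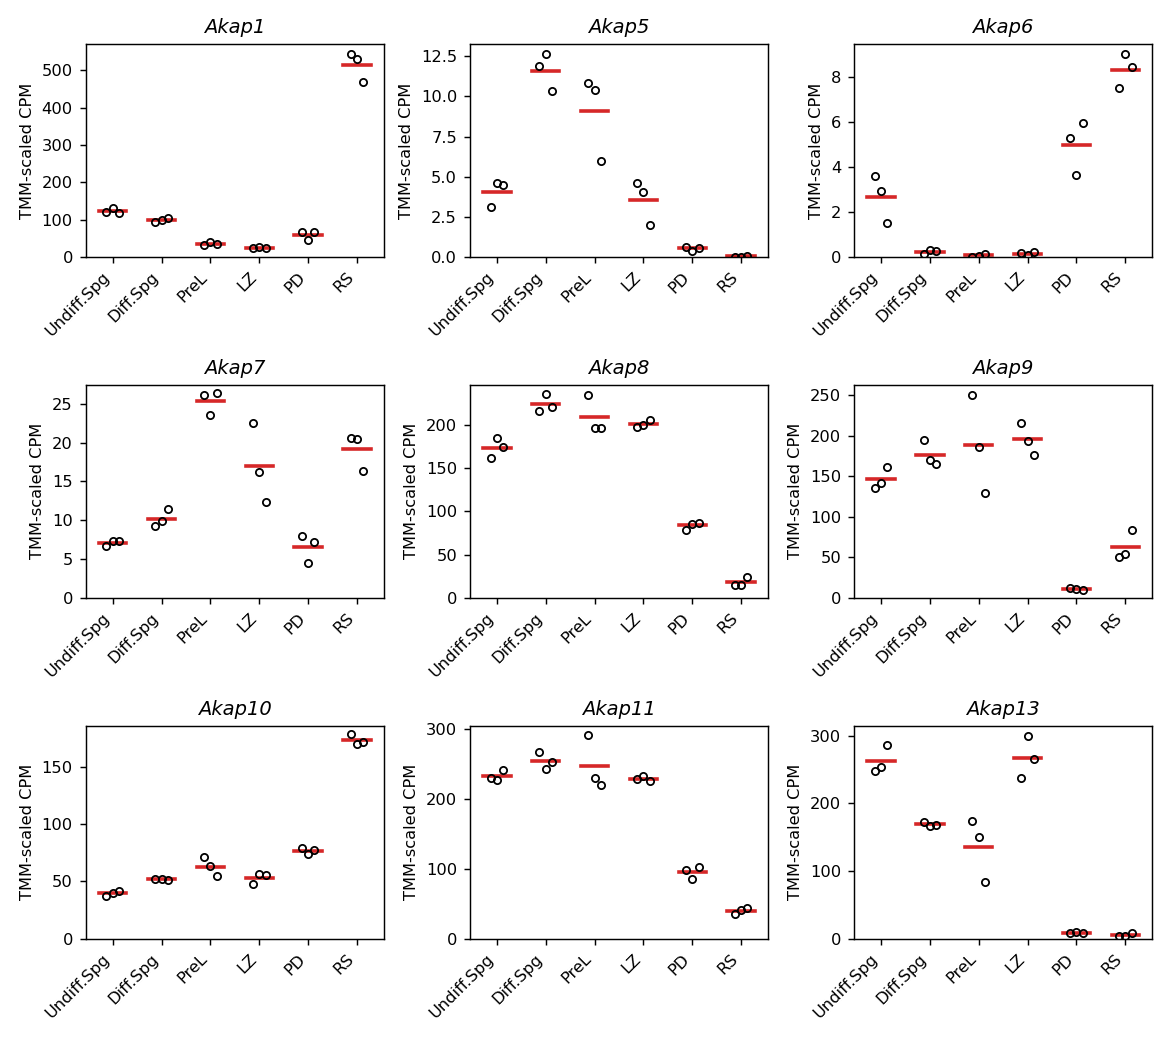
TMM-scaled CPM of the 9 other members in each library (circles) with group means (red bars), on linear axes from 0, for the 6 populations in developmental order. Akap1, Akap6 and Akap10 are highest in RS, Akap7 is high in PreL and in RS, and Akap5, Akap8, Akap11 and Akap13 are lowest in RS, while Akap9 is lowest in PD.

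The step with the most member calls was PD against LZ, in which all 10 members were called, 4 higher (Akap12, Akap6, Akap1 and Akap10) and 6 lower. In that step 82.9% of all tested genes were called, 42.1% higher and 40.8% lower, so a call in this step does not set the members apart. In RS against PD, where Akap12 was not tested, all 9 others were called, 5 higher (Akap1, Akap9, Akap7, Akap10 and Akap6) and 4 lower (Akap5, Akap8, Akap11 and Akap13). The background was 58.9%, with 30.3% higher and 28.6% lower, and the calls of Akap6 and Akap13 are those lost with a left-out library. Akap7 and Akap9 fell in the first of these steps and rose in the next, and both steps use the same PD libraries.

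**Figure D4:**
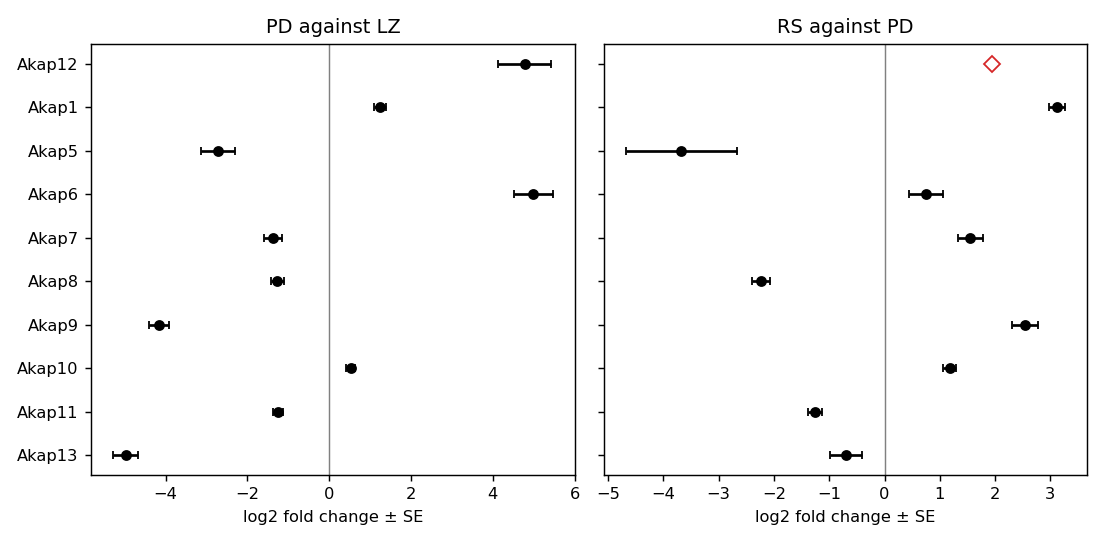
Log2 fold change of each member in PD against LZ (left) and RS against PD (right), with SE bars; all filled circles are calls at adjusted p under 0.05. Akap12 in RS against PD is the log2 ratio of the means, 1.95, drawn as an open diamond without an error because the gene was chosen for its RS level.

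In the fit of all libraries the 3 earlier steps called fewer members. Diff.Spg against Undiff.Spg called 5, with Akap5, Akap10 and Akap8 higher and Akap6 and Akap13 lower, against 43.5% of all genes (20.4% higher, 23.0% lower). PreL against Diff.Spg called 3, with Akap7 and Akap10 higher and Akap1 lower, against 45.2% of all genes (20.4% higher, 24.8% lower). LZ against PreL called 4, with Akap13 higher and Akap5, Akap7 and Akap1 lower, against 47.5% of all genes (24.3% higher, 23.2% lower). The number called in Diff.Spg against Undiff.Spg varied most with the libraries used. It was 10, with 6 higher and 4 lower, in a fit of the 6 libraries of that step alone, 3 with the replicate block, and 3 when any Undiff.Spg or Diff.Spg library, PD replicate 1 or PD replicate 3 was left out.

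Levels of different members can be compared only per length, as RPKM over the merged exons of each gene. Summed over the 10 members, the level was 107.9, 104.7, 94.7 and 91.5 RPKM in Undiff.Spg, Diff.Spg, PreL and LZ, then 242.6 RPKM in PD and 916.6 RPKM in RS. Other anchoring protein genes are not in the sum, among them Akap3 and Akap4, with 1810 ± 255.7 and 1010 ± 129.4 CPM in RS. Akap12 made up 9.97%, 4.39%, 8.04% and 7.79% of the sum in the earlier populations, 80.8% in PD and 82.7% in RS, where its own level was 758.4 ± 32.1 RPKM. Akap12 was chosen by its RS level, so its lead in RS is a description only. Its shares in PreL and LZ rested on the replicate 2 libraries, and without them were 3.33% in PreL and 4.06% in LZ, an alternative chosen after seeing the data. Among the other members Akap1 led in Undiff.Spg with 25.9% (27.9 RPKM) and was next to Akap12 in RS with 12.8% (117.4 RPKM). In Diff.Spg, PreL and LZ the highest was Akap8 with 24.7%, 25.5% and 25.4%, followed by Akap11 with 22.1%, 23.8% and 22.7%. In RS Akap8 and Akap11 made up 0.223% and 0.394%.

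**Figure D5:**
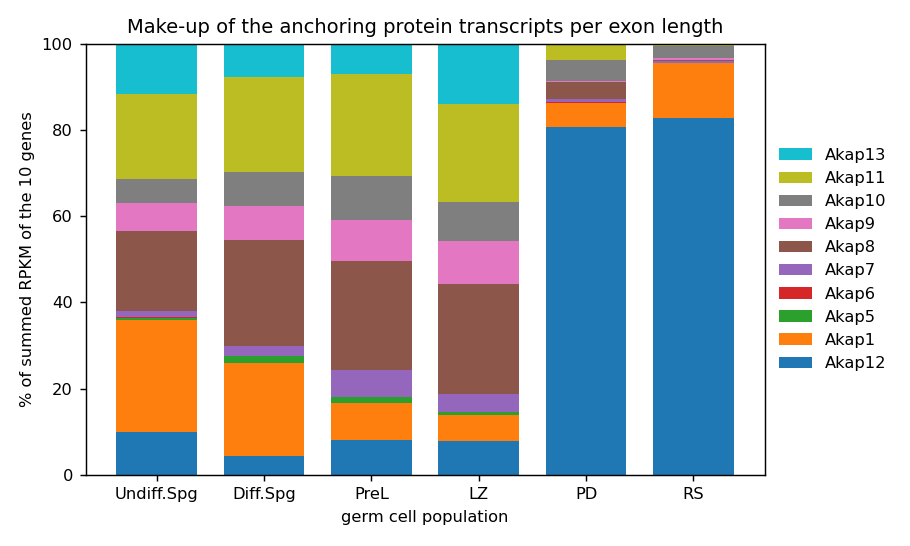
Make-up of the summed RPKM of the 10 members over merged exons in each population, in percent, stacked in the order of the legend. Akap1 takes the largest share in Undiff.Spg and Akap8 in Diff.Spg, PreL and LZ, and Akap12 takes 80.8% in PD and 82.7% in RS. Other anchoring protein genes, such as Akap3 and Akap4, are not in the sum.

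By the same measure of likeness, over 6 group means, the genes closest to Akap12 among 14658 protein-coding genes compared were Slc14a2 (root mean square difference 0.204), Maats1 (0.231), Ankef1 (0.263), Mak (0.327), Hfe2 (0.334) and Sun3 (0.349). Protein-coding genes with Gm-number or Rik names were left out of this comparison, so closer ones among those were not looked for. In PreL and LZ the means of these genes also rest on the replicate 2 libraries: Maats1, for example, had 1.02, 7.58 and 1.07 CPM in PreL and 0.613, 8.24 and 1.32 CPM in LZ. Without both libraries 5 of the 6 remained among the closest 6, led by Maats1 (0.314) and Slc14a2 (0.320), and Sun3 (0.388) was at place 7. All 6 are on other chromosomes. Slc14a2 and Hfe2 were far lower in reads, with 44.0 ± 5.39 and 26.3 ± 0.181 CPM in RS and 12.2 ± 2.94 and 13.7 ± 1.62 CPM in PD. In Undiff.Spg, Diff.Spg, PreL and LZ Slc14a2 had 20, 7, 23 and 19 reads in all, and Hfe2 had 14, 9, 15 and 8. Their likeness to Akap12 before PD thus rests on few reads. Maats1 had 313.8 ± 9.80 CPM in RS and 121.3 ± 4.83 CPM in PD, and Mak, a kinase gene named for male germ cells, had 529.6 ± 64.8 CPM in RS and 216.9 ± 16.4 CPM in PD. Ankef1 had 620.9 ± 73.8 CPM in RS and 105.5 ± 5.24 CPM in PD. The nearest genes on chromosome 10 had other courses. Zbtb2, 7605 bases away, had 2.79 ± 0.387 CPM in RS, 5.65 ± 0.798 CPM in PD and 36.5 ± 2.02 CPM in Undiff.Spg, and Mthfd1l on the other side had 0.358 ± 0.0641 CPM in RS and 11.3 ± 1.87 CPM in LZ. Plekhg1, beyond Mthfd1l, had 9.51 ± 1.62 CPM in RS and 0.747 ± 0.187 CPM in PD. Rmnd1 was higher in RS, at 41.8 ± 12.2 CPM, than in PD, at 4.77 ± 1.56 CPM.

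Among the PKA subunits that anchoring proteins hold, levels moved in both directions. In PD against LZ 2 of 6 rose (Prkaca and Prkar1a) and 2 fell (Prkacb and Prkar2b), with a list median of 0.18 on the log2 scale, against 0.0 over all tested genes, of which 42.1% rose and 40.8% fell. Prkaca, the catalytic subunit of which sperm carry their own form, had 242.5, 241.9 and 238.6 CPM in PD and 104.4, 112.0 and 111.8 CPM in LZ (log2 fold change 1.14 ± 0.10, adjusted p = 1.63e-08). Prkacb, the other main catalytic subunit, had 3.29, 2.64 and 1.47 CPM in PD and 63.6, 59.1 and 54.8 CPM in LZ (-4.57 ± 0.21, adjusted p = 3.44e-12). Neither pair of groups overlapped. Among regulatory subunits Prkar2b had 10.5 ± 4.49 CPM in PD and 91.1 ± 10.7 CPM in LZ (-3.11 ± 0.21, adjusted p = 5.76e-10), or -3.71 without PD replicate 3. Prkar1a had 343.1 ± 7.96 CPM in PD and 239.4 ± 10.9 CPM in LZ (0.52 ± 0.12, adjusted p = 0.000679), a call lost with total library size as the only scaling (0.12, adjusted p = 0.237).

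Of the 6 subunits 4 rose in RS against PD and none fell, against 30.3% of all tested genes higher and 28.6% lower, with a list median of 0.54. Prkar1b had 21.3 ± 2.49 CPM in RS and 2.88 ± 0.997 CPM in PD (2.88 ± 0.27, adjusted p = 1.31e-07), and Prkar2a had 44.1 ± 7.60 CPM in RS and 10.5 ± 3.11 CPM in PD (2.08 ± 0.20, adjusted p = 1.79e-07). Prkar1a reached 583.7 ± 59.4 CPM in RS, above PD by 0.77 ± 0.12 (adjusted p = 2.86e-05). Prkaca was higher by 0.31 ± 0.10 (adjusted p = 0.0135), a call lost when any PD or RS library or LZ replicate 3 was left out (adjusted p up to 0.116), with total library size as the only scaling (0.095, adjusted p = 0.36) and without the low-count filter (0.30, adjusted p = 0.0607). Prkacb and Prkar2b stayed at 2.47 ± 0.158 and 9.30 ± 1.29 CPM in RS. The inhibitor gene Pkib had 102.5 ± 11.97 CPM in RS, 10.6 ± 2.34 CPM in PD and 0.720 ± 0.669 CPM in LZ, and rose in both steps, with RS against PD at 3.27 ± 0.49 (adjusted p = 2.09e-05). PD against LZ was 3.84 with all libraries, 4.93 without the replicate 2 libraries of PreL and LZ, and 3.23 without LZ replicate 3.

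Other anchoring protein genes split evenly in PD against LZ, where 9 of 21 rose and 9 fell (42.1% and 40.8% of all tested genes), with a median of -0.19. Sphkap rose (288.6 CPM in PD and 0.997, 9.09 and 1.18 CPM in the LZ libraries, log2 fold change 6.25 ± 0.83, or 8.04 without the replicate 2 libraries of PreL and LZ and 5.64 without LZ replicate 3), as did Akap14 (3.62 ± 0.61), an anchor of cilia and flagella. Lrba, a vesicle trafficking anchor, fell (2.09 CPM in PD and 234.5 CPM in LZ, -6.81 ± 0.22), and so did Akap17b, from 2 reads in PD and 547 reads in LZ, a ratio of 0.00465 with a 95% counting interval of 0.000561 to 0.0169. In RS against PD 10 of 21 rose and 4 fell (30.3% and 28.6% of all tested genes), with a median of 0.54. Akap14 had 56.4 ± 10.6 CPM in RS and 4.001 ± 0.596 CPM in PD (3.81 ± 0.41, adjusted p = 5.03e-07). Akap3, a main protein of the fibrous sheath, had 2024, 1881 and 1527 CPM in RS and 200.6, 152.0 and 185.7 CPM in PD (3.33 ± 0.79, adjusted p = 0.00147). Ezr, the membrane and actin linker ezrin, and Pcnt, the centrosome anchor pericentrin, fell by -2.44 ± 0.20 and -2.02 ± 0.22 (adjusted p = 2.33e-08 and 7.02e-07). Genes for sperm proteins that dock on anchoring proteins rose in 5 of 5 cases in PD against LZ, where 42.1% of all tested genes rose. Their median was 4.04, that of Ropn1, or 4.81 without the replicate 2 libraries of PreL and LZ. In RS against PD 3 of 5 rose, against 30.3% of all tested genes, with a median of 1.61; 4 rose without those libraries and 5 in a fit of the 6 libraries of that step alone. Of these Ropn1 had 384.7 CPM in RS, 36.0 CPM in PD and 2.16 CPM in LZ.

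Genes that make or break down cyclic AMP, or regulate transcription linked to it, are set against the same shares of all tested genes. These were 42.1% higher and 40.8% lower in PD against LZ, and 30.3% higher and 28.6% lower in RS against PD. Among 8 tested adenylyl cyclases 3 rose and 4 fell in PD against LZ, with a median of -0.10. Adcy10, the soluble cyclase of sperm, had 215.1, 216.3 and 328.0 CPM in PD and 1.46, 10.7 and 2.35 CPM in LZ (5.70 ± 0.77, adjusted p = 3.03e-06, or 7.04 without the replicate 2 libraries of PreL and LZ). Adcy7 fell to 3 reads in PD, against 1703 reads in LZ, a ratio of 0.00224 with a 95% counting interval of 0.000461 to 0.00655. Of the 8, 1 rose and 2 fell in RS against PD, with a median of 0.05, and without those libraries 2 rose, since Adcy10 was then called (1.44, adjusted p = 1.29e-06; with all libraries 1.44, adjusted p = 0.0584). Of 14 tested phosphodiesterases 10 rose and 3 fell in PD against LZ, so that 13 of 14 were called where 82.9% of all tested genes were. The median was 1.52, and the rises were led by Pde10a at 268.2 CPM in PD and 2.56 CPM in LZ (6.69 ± 0.56, adjusted p = 7.41e-09, or 7.98 without the replicate 2 libraries and 6.099 without LZ replicate 3). In RS against PD 7 rose and 3 fell, with a median of 1.39, or 0.78 over the 13 with more than 3 reads in either group. Pde4a had 394.5 ± 32.2 CPM in RS and 34.7 ± 4.89 CPM in PD (3.50 ± 0.20, adjusted p = 4.63e-10), and Pde10a was lower in RS, by -1.93 ± 0.43 (adjusted p = 0.000966).

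Of 7 listed genes for regulators of transcription linked to cyclic AMP, 3 rose and 4 fell in PD against LZ, with a median of -1.31. In RS against PD 3 rose and 4 fell, with a median of -0.52. All 7 were thus called in each step, against 82.9% and 58.9% of all tested genes. Crem, the activator of spermatid genes, had 557.7 ± 74.8 CPM in RS, 221.1 ± 10.1 CPM in PD and 47.5 ± 8.29 CPM in LZ. Its partner Fhl5 had 158.9 CPM in RS, 18.5 CPM in PD and 0.644 CPM in LZ, and both rose in each step. For Fhl5, PD against LZ was 4.79 with all libraries, 6.30 without the replicate 2 libraries of PreL and LZ, and 4.14 without LZ replicate 3. Atf1 rose by 0.58 in PD against LZ (adjusted p = 3.63e-05), but by 0.18 (adjusted p = 0.0737) with total library size as the only scaling, and by 0.45 in RS against PD (adjusted p = 0.000792). The coactivators Crtc1, Crtc2 and Crtc3 fell in both steps, Crtc2 to 23.9 CPM in PD, against 232.6 CPM in LZ.

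Protein kinase C genes, the other kinases that Akap12 and Akap5 hold, rose in 5 and fell in 4 of 9 cases in PD against LZ, where 42.1% of all tested genes rose and 40.8% fell, with a median of 1.15. In RS against PD 7 rose and none fell, against 30.3% and 28.6% of all tested genes, with a median of 1.86, or 1.82 with the gene that had no read in PD set at 3 reads. Prkcq had 203.3 CPM in RS and 19.2 CPM in PD (3.40 ± 0.33, adjusted p = 1.61e-07). The anchored phosphatases split into 5 higher and 5 lower in PD against LZ, with a median of -0.03. The testis calcineurin subunit Ppp3r2 had 971.1 CPM in PD and 1.92, 26.4 and 2.35 CPM in the LZ libraries (6.56 ± 0.98, adjusted p = 1.02e-05). Without the replicate 2 libraries of PreL and LZ the log2 fold change was 8.82, without LZ replicate 3 it was 5.91, and with the replicate block 7.30. In contrast its widely expressed counterpart Ppp3r1 fell by -4.83 ± 0.20 (adjusted p = 1.02e-12). Likewise Ppp1cc, whose form in sperm is known, rose by 3.07 ± 0.11 (adjusted p = 2.02e-13) and Ppp1ca fell by -8.10 ± 0.32 (adjusted p = 5.36e-13), or by -9.0 without PD replicate 1, which held more of it than the other PD libraries. Of these 10 genes in RS against PD 3 rose and 4 fell, with a median of -0.44.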

How the data were processed

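RNA from sorted germ cells was sequenced as single reads, per the labels' protocols. The values are counts of reads per gene deposited by the authors, with no scaling. The submitters' processing notes name STAR 2.4.2a, cutadapt, HTSeq and DESeq2, and the build GRCm38, but not the role of each. Strand setting and annotation release: not given in the sources used here. No molecular identifiers are mentioned, so counting intervals and floors cover counting error only. Totals ran from 11777947 to 16607462 counts per library, for which 3 counts are about 0.2 CPM in the first library.

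Genes were kept by filterByExpr (18547 of 46603), scaled by TMM and fitted in 1 model of the 6 groups with edgeR 4.0.16 under R 4.3.3 (glmQLFit and glmQLFTest, 2-sided). All pairs of groups were tested, the 5 steps between successive groups among them, with Benjamini-Hochberg adjustment within each pair. A call is adjusted p under 0.05 with no fold condition. SEs were derived from the F statistic, as the size of the log2 fold change divided by its square root. Names, lengths and coordinates are from GENCODE M21 on GRCm38 (46091 IDs matched). The script was tested on simulated data first. No pair of replicates agreed within counting noise. Likeness of profiles uses log2 CPM means (prior count 2), centred per gene. The search for genes like Akap12 took tested protein-coding genes without Gm-number or Rik names.

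The members, the pathway and marker lists, the tests and the alternatives were chosen with earlier results of these data known. Other genes named are, per list and step, the 3 largest rises and 3 largest falls that passed at most, all PKA subunits, the 6 genes most like Akap12 and its 2 nearest protein-coding genes on each side. Catsper3 and Ldhc, named as the ends of a range, were chosen after their values were seen. The list of late genes was kept to those of at least 50 CPM in RS.

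Replicate numbers were checked for pairing by correlating deviations from group means. Same-numbered libraries correlated at 0.228, 0.445 and 0.121 between Diff.Spg and PreL and at 0.455, 0.683 and 0.254 between PreL and LZ. Pairing in those steps is thus possible but not shown. Libraries of different numbers were not compared, and PreL replicate 2 and LZ replicate 2 share a raised level of late transcripts. The main fit holds no term for replicate numbers, which only the replicate block adds. In the other 3 steps at least 1 pair was under 0.1. Alternatives were RLE scaling, total library size, other low-count filters, the replicate block, DESeq2 1.42.0, the libraries of a step alone, each library left out, and PreL replicate 2 with LZ replicate 2 left out, which for shares per length was chosen after seeing the data.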

Additional observations from a re-analysis of the deposited data

How the results depend on the processing

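Of 1297 values of the members recomputed over 28 alternatives, 1166 kept their direction and their side of the threshold, 81 were no longer called, 26 became called, 21 changed sign and 3 moved, the last being Akap12 in RS against PD (1.95, against 1.74 with total library size, 2.11 with RLE scaling and 2.11 with DESeq2). The sign changes, all between Diff.Spg and LZ, were of Akap12 in PreL against Diff.Spg (-0.60 without PreL replicate 2 and LZ replicate 2; -0.60 to 1.12 with 1 library left out), Akap12 in LZ against PreL (0.21 without both; -1.12 to 1.24 with 1 library left out), Akap8 in LZ against PreL (-0.14 to 0.029 with 1 library left out), Akap9 in PreL against Diff.Spg (-0.16 to 0.31 with 1 library left out), Akap9 in LZ against PreL (-0.15 with total library size; -0.16 to 0.31 with 1 library left out), Akap11 in PreL against Diff.Spg (0.0093 without both; -0.17 to 0.037 with 1 library left out) and Akap11 in LZ against PreL (-0.20 to 0.015 with 1 library left out). The members called in Diff.Spg against Undiff.Spg were 5, against 3 with the replicate block, 10 in the 6 libraries alone, 2 with a 2-fold condition and 3 to 6 with 1 library left out; in LZ against PreL 4 were called, against 1 with a 2-fold condition. Without PreL replicate 2 and LZ replicate 2 the members called numbered 6, 3, 3, 10 and 9 in the 5 steps. The 2-fold condition left 4516, 4762 and 5145 of all genes in the first 3 steps, against 8061, 8380 and 8818. Outside the steps of possible pairing the replicate block also ended the calls of Akap8 and Akap13 in Diff.Spg against Undiff.Spg (adjusted p = 0.055 and 0.0626). It ended those of Akap6 and Akap13 in RS against PD (adjusted p = 0.0649 and 0.0641) as well. In the steps of possible pairing, PreL against Diff.Spg and LZ against PreL, it changed only the call of Akap10. The Akap12 level per length in RS was 791 RPKM with the longest transcript in place of merged exons (758.4). Total library size moved the median of all genes by -0.20, -0.35 and -0.14 in LZ, PD and RS, each against the group before, and RLE scaling by 0.14 in RS. Of 1170 recomputed counts of called genes per pathway list, 37 moved by over 1.5 times. Akap5 in RS and Akap6 in PreL rest on 1 and 3 reads, so their levels there are limited by depth. No reason for these changes was tested.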
